A study of Danio rerio with 2 samples.

Results

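Fine cluster 8 is a group of 270 cells that the authors' clustering placed inside coarse cluster 3, out of 10469 cells in all. Its members were taken as every cell with the deposited coarse cluster number 3 and fine cluster number 8, and no cell of fine cluster 8 lay in another coarse cluster. The cells were sorted for GFP from zebrafish tails at 20 hours post fertilisation, where an npas4l reporter marks cells that have switched the gene on. One group was heterozygous for the bns423 allele of npas4l, and the other carried bns423 together with bns297 and is called mutant here, so that bns423 was present in both groups. Tails of about 150 embryos were pooled, a number that the labels do not assign to each genotype or to both together. Each genotype gave 1 library from 1 droplet lane. Of the 270 members, 264 came from the mutant library of 5262 cells and 6 from the heterozygous library of 5207 cells. None of the 6 heterozygous or 264 mutant members carried a cell barcode that occurred in both libraries, of which there were 5. The deposited tables describe each cell by its cluster, transcript content and RNA velocity scores. Gene expression was not analysed here, no source used here ties the number 8 to a cell type, and the cluster is therefore called by its number.

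Npas4l, encoded at the cloche locus, is a basic helix-loop-helix transcription factor that acts at the top of the pathway by which zebrafish mesoderm gives rise to endothelium and blood. Embryos lacking it form few endothelial or blood cells, while cells of the lateral mesoderm that would have made them are still present and can enter other mesodermal fates. RNA velocity compares unspliced with spliced transcripts in each cell to estimate the direction in which its transcriptome is moving. From these estimates pseudotime orders cells from early to late, a root cell score marks cells from which estimated movement starts, an end point score marks cells where it comes to rest, and self-transition measures how likely a cell is to remain in its own state.

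Fine cluster 8 was almost wholly a population of the mutant library. It made up 5.02% of mutant cells (exact 95% interval 4.44% to 5.64%) and 0.115% of heterozygous cells (0.0423% to 0.251%). Mutant cells were 97.8% of the cluster, while in the other 4 fine clusters of coarse cluster 3 they were from 90.0% (fine cluster 7) to 94.8% (fine cluster 9). The mutant over heterozygous ratio of shares was 43.5 (bounds 17.7 and 133). Among all 15 fine clusters this stood between 66.8 in fine cluster 14 (34.9 and 143) and 16.1 in fine cluster 9 (7.50 and 39.1), with overlapping bounds. Such bounds combine opposite ends of the exact intervals and are wide, so their overlap cannot decide the order of these 3. By a rule of size, namely shares at least 2-fold apart with separate intervals and at least 20 cells, fine cluster 8 was larger in the mutant library, as were 60.0% of all fine clusters, while 26.7% were smaller. The ratio was lower, 9.68 (3.95 to 29.6), among cells outside coarse clusters 1 and 4, and this value lay below the bounds of 17.7 and 133. Fine cluster 1 of coarse cluster 1 held 58.8% of heterozygous and 2.79% of mutant cells. The ratio of library shares therefore depends on whether that cluster is counted in the totals. Among cells with at least 14239.5 UMIs or at least 2967 genes the ratio was 74.0 (21.5 to 419) and 80.2 (23.5 to 450). Each of these ratios rested on 3 heterozygous members and lay within the bounds of 17.7 and 133. The minimums kept 3921 and 3815 of the 5207 heterozygous cells but 2631 and 2633 of the 5262 mutant cells. The intervals cover counting error over cells, and with 1 library per genotype no test across libraries could be made.

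Set against its closest neighbours, the cluster was also less frequent in the heterozygous library. Had fine cluster 8 taken the same part of coarse cluster 3 there as in the mutant library, 22.3 of the 122 heterozygous cells would have belonged to it, and 6 did. For every 100 cells of fine cluster 4 there were 60.4 cells of fine cluster 8 in the mutant library and 13.0 in the heterozygous library. For every 100 cells of fine cluster 6 there were 89.5 and 20.7, and for every 100 cells of fine cluster 7 there were 91.7 and 18.8. Relative to fine cluster 9 the values were 162 and 66.7, the latter resting on 6 and 9 cells. The mutant over heterozygous ratio of shares within coarse cluster 3 was 3.71 for fine cluster 8 (bounds 1.57 and 11.1) and 1.53 for fine cluster 9 (0.715 and 3.79), and between 0.759 and 0.858 for the other three. The bounds of fine clusters 8 and 9 overlapped and did not separate them at this number of heterozygous cells. Among cells with at most 1.39% mitochondrial UMIs, the ratio for fine cluster 8 was 3.05 and its bounds of 0.997 and 13.5 included 1. That maximum kept 4 of the 6 heterozygous and 76 of the 264 mutant members, in 71 and 443 cells of coarse cluster 3. It thus removed a larger part of the mutant members. The ratio of library shares under the same maximum was 49.1 (15.2 to 224).

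**Figure D1:**
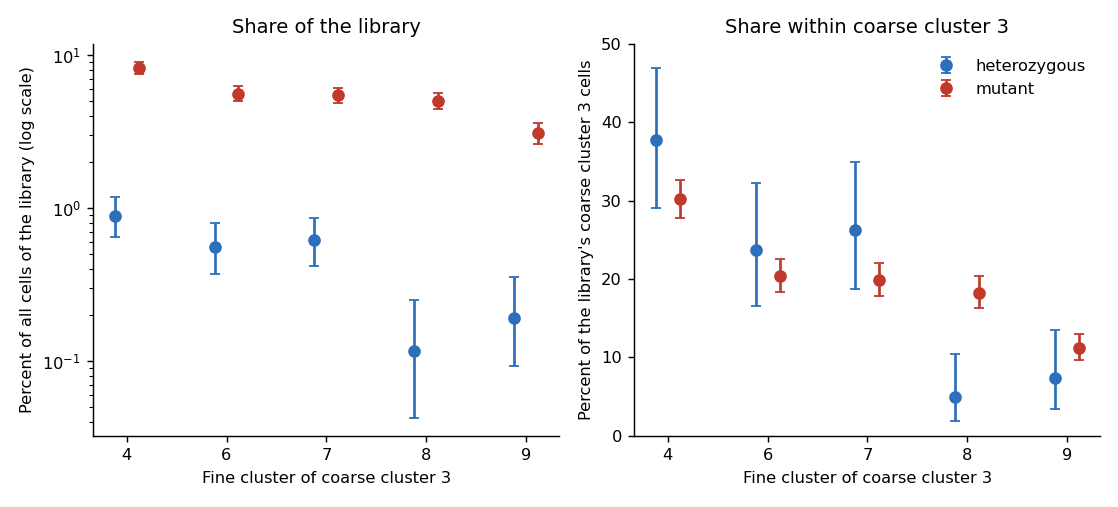
Shares of the 5 fine clusters of coarse cluster 3 in the heterozygous (blue) and mutant (red) libraries, as percent of all cells of the library on a log scale (left) and as percent of the library's coarse cluster 3 cells (right); bars are exact 95% intervals over cells, and the left panel includes 1 heterozygous cell of fine cluster 9 outside coarse cluster 3. In the right panel the intervals of fine cluster 8, at 4.92% and 18.2%, lie apart, while those of each of the other 4 clusters overlap.

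The velocity scores placed fine cluster 8 at the late end of coarse cluster 3. In the mutant library its median pseudotime was 0.482 (95% interval 0.481 to 0.484), with quartiles of 0.474 and 0.490. The other 4 fine clusters had medians of 0.446 in fine cluster 6, 0.459 in fine cluster 7, 0.460 in fine cluster 4 and 0.475 in fine cluster 9. Of the 1183 mutant cells in those clusters, 97.2% lay earlier than the median of fine cluster 8. All 437 cells of fine cluster 4 and all 295 of fine cluster 6 did so, as did 137 of the 163 cells of fine cluster 9, the nearest neighbour in the order. The difference from fine cluster 9 was 0.00776 (bounds 0.00472 and 0.0116), and only 7.20% of fine cluster 8 cells lay beyond the 95th percentile of fine cluster 9. The 2 clusters therefore overlapped widely, although their medians stood apart. The clusters were made from the same cells and share a library, so these differences are descriptions and carry no test.

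Within coarse cluster 3, low root scores and raised end point scores accompanied that position. The median root cell score of fine cluster 8 was 0.0260 (0.0228 to 0.0294), the lowest of the 5 fine clusters. Fine clusters 6, 7 and 4 had 0.0452, 0.0484 and 0.0570, and fine cluster 9, adjacent in pseudotime, had 0.756. The lowest single scores lay in fine cluster 7, with a minimum of 0.00173 against 0.00867 in fine cluster 8. Of fine cluster 7, 27.4% of cells lay below the median of fine cluster 8. In turn, 12.9% of fine cluster 8 cells lay above the 95th percentile of fine cluster 6. A root cell score of 0.5 or more was given to 2 of the 264 mutant cells of fine cluster 8, or 0.758% (0.0919% to 2.71%), and to 192 of the 1183 others, or 16.2% (14.2% to 18.5%). The 95th percentiles of fine clusters 6 and 7 were 0.0841 and 0.208, so such scores were rare there as well. In fine cluster 4 the 95th percentile was 0.727, and in fine cluster 9 the lower quartile was already 0.643. Fine cluster 9 was thus the nearest of the other 4 to fine cluster 8 in median pseudotime and the farthest from it in median root cell score.

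Against the other 4 clusters together, the end point score separated fine cluster 8 more fully than any other of the 8 measures, judged by the part of its cells above the 95th or below the 5th percentile of the others. Its median was 0.00197 (0.00168 to 0.00220), and the medians of the other 4 clusters ran from 2.92e-05 (fine cluster 4) to 6.49e-05 (fine cluster 9). Of the 264 cells, 245 (92.8%, 89.0% to 95.6%) exceeded the 95th percentile of the 1183 others. Against fine cluster 9 alone the root cell score did so more fully, with 97.0% of fine cluster 8 below its 5th percentile and 78.8% above its 95th percentile in end point score. An end point score of 0.001 or more was reached by 198 cells of fine cluster 8 (75.0%, 69.3% to 80.1%) and by 16 of the others (1.35%, 0.775% to 2.19%), of which 8 were in fine cluster 9. In absolute terms the scores remained low on their scale from 0 to 1. Only 3 cells of fine cluster 8 reached 0.1, the highest score was 0.202, and 0 of 264 reached 0.9, which allows a share of up to 1.14% when the limit of a count of 0 is taken as 3 counts.

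Self-transition was highest in fine cluster 8 as well, with a median of 0.389 (0.377 to 0.401). Fine cluster 9 followed at 0.353 and fine cluster 4 at 0.325, and fine clusters 7 and 6 had 0.223 and 0.178. Of the other mutant cells of coarse cluster 3, 90.8% lay below the median of fine cluster 8. By cluster this was 71.8% in fine cluster 9, 88.1% in fine cluster 4, 98.0% in fine cluster 6 and 98.3% in fine cluster 7. Only 24.6% of fine cluster 8 cells lay above the 95th percentile of fine cluster 9. The interval of fine cluster 8 lay apart from that of each of the other 4 clusters in all 4 velocity scores.

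**Figure D2:**
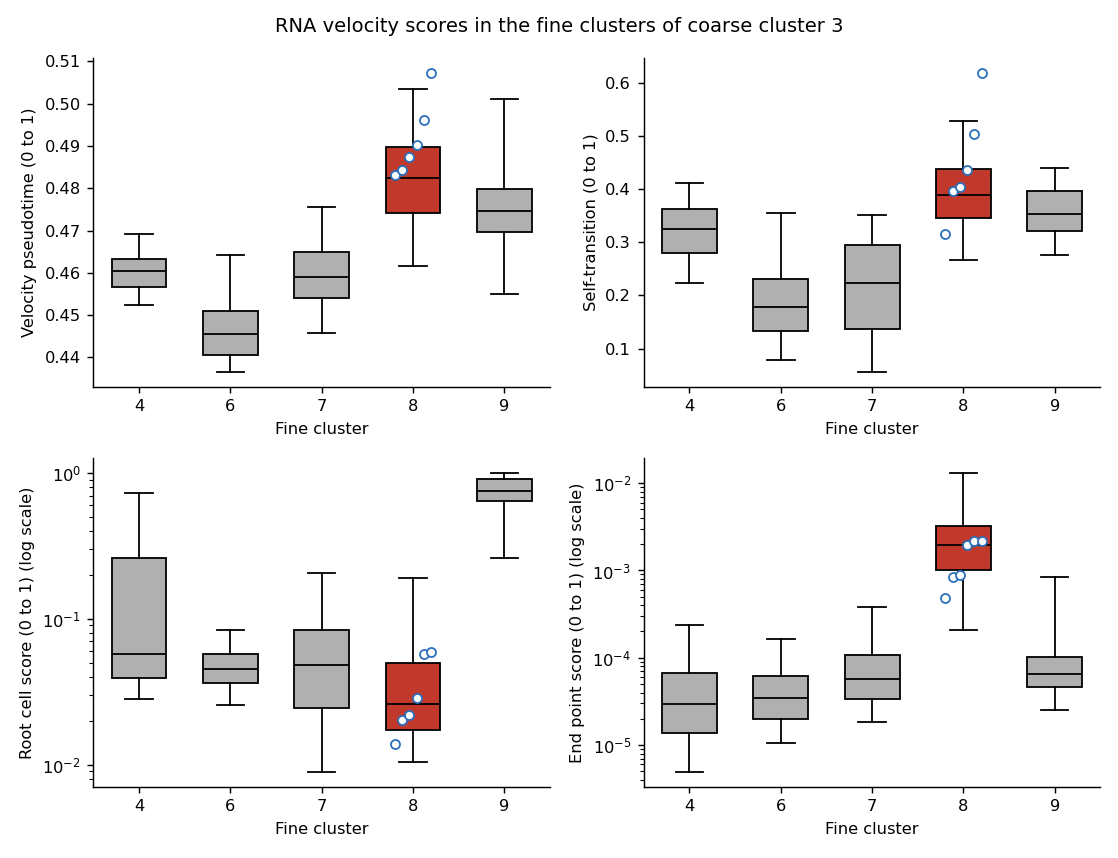
The authors' RNA velocity scores in mutant cells of the 5 fine clusters of coarse cluster 3, with fine cluster 8 in red: boxes span the quartiles with the median as a line, whiskers run from the 5th to the 95th percentile, and open blue circles are the 6 heterozygous cells of fine cluster 8. Root cell and end point scores are on log scales; fine cluster 8 has the highest median pseudotime (0.482), self-transition (0.389) and end point score (0.00197) and the lowest median root cell score (0.0260).

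Seen among all 12 fine clusters with at least 20 mutant cells, fine cluster 8 took a middle place. Its median pseudotime was the 5th highest, between fine cluster 13 of coarse cluster 5 at 0.4995 (0.499 to 0.4999) and fine cluster 9 at 0.475. Its end point score was also the 5th highest, next to 0.00360 in fine cluster 13 and 0.00164 (0.00129 to 0.00205) in fine cluster 15 of coarse cluster 7. The interval of fine cluster 15 overlapped that of fine cluster 8, so their order was not resolved. Later pseudotime did not always go with a higher end point score. Fine clusters 1 and 14 had higher median end point scores, 0.00493 and 0.0133, at earlier median pseudotimes of 0.00961 and 0.463. Fine clusters 5 and 13 had higher scores at later pseudotimes. Fine cluster 12, with 33 mutant cells, had a lower median score of 6.89e-05 at a later median pseudotime of 0.605. Fine cluster 15 was also later, at 0.540. Self-transition was the 6th highest, and the next cluster above, fine cluster 14 with 0.395 (0.386 to 0.403), again had an overlapping interval. The nearest clusters in median end point score, fine clusters 15 and 13, thus both lay outside coarse cluster 3. In median root cell score fine cluster 8 was the 9th highest of the 12. Fine clusters 2, 12 and 5, outside coarse cluster 3, had lower medians of 0.00596, 0.00421 and 0.00216. The median unspliced percent of fine cluster 8, 7.82% of spliced plus unspliced UMIs, lay below the 10.3%, 10.2% and 10.2% of fine clusters 13, 14 and 15. It lay above the 7.02% and 7.07% of fine clusters 1 and 2.

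Transcript content did not set fine cluster 8 apart in one direction. Its mutant cells held a median of 14973 UMIs, unique molecular identifiers that count captured transcripts (14303 to 16311), ranging from 5427 to 59767. This was above the 12692 of fine cluster 4 and the 13748 of fine cluster 6 and below the 17746 of fine cluster 9 and the 19432 of fine cluster 7. The median number of genes was 3168.5 (3047 to 3281), against 2776 in fine cluster 6, 2814 in fine cluster 4, 3570.5 in fine cluster 7 and 3630 in fine cluster 9. Mitochondrial transcripts made up 1.72% of UMIs (1.62% to 1.80%), and this interval overlapped those of the other 4 clusters, whose medians ran from 1.55% to 1.73%. The unspliced percent of 7.82% (7.53% to 8.11%) lay below the 9.85% of fine cluster 9 (9.12% to 10.4%) and above the 7.28% of fine cluster 6 (7.11% to 7.49%), and its interval overlapped those of fine clusters 4 and 7.

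**Figure D3:**
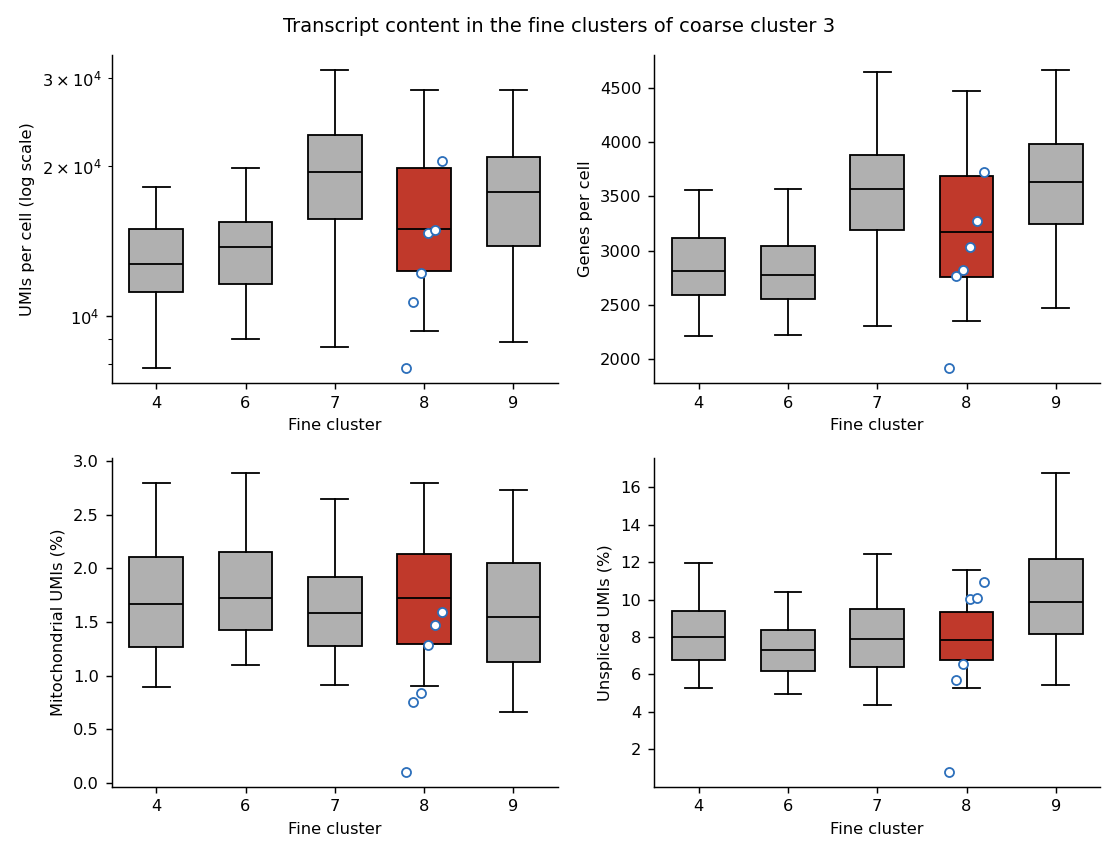
UMIs (log scale), genes, mitochondrial percent and unspliced percent per cell in mutant cells of the 5 fine clusters of coarse cluster 3, with fine cluster 8 in red: boxes span the quartiles, whiskers run from the 5th to the 95th percentile, and open blue circles are the 6 heterozygous cells of fine cluster 8. Medians of fine cluster 8 lie between those of the other clusters, and 1 heterozygous cell stands below the others at 0.102% mitochondrial and 0.801% unspliced UMIs.

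The score differences from the other 4 clusters together were also present in cells of like depth. Between 11897 and 18292.5 UMIs, the quartiles of all mutant cells of coarse cluster 3, there were 118 cells of fine cluster 8 and 606 others, with median UMIs of 14389 and 14390.5. In this window the median pseudotime was 0.481 (0.478 to 0.484) against 0.458 (0.457 to 0.459). The end point score was 0.00179 (0.00139 to 0.00223) against 3.63e-05 (3.30e-05 to 3.99e-05), the root cell score 0.0219 (0.0197 to 0.0266) against 0.0486 (0.0471 to 0.0513), and self-transition 0.378 (0.368 to 0.397) against 0.278 (0.264 to 0.291). The number of genes was 3062.5 (3009 to 3148) against 3039.5 (3000 to 3070), with overlapping intervals. Cluster by cluster, fine cluster 6 had fewer genes at this depth, 2862 (2828 to 2902), and the interval of fine cluster 4, 3000.5 (2946 to 3059), overlapped that of fine cluster 8. Fine clusters 7 and 9 had more genes, 3236 (3190 to 3279) and 3448.5 (3354 to 3517), at higher median depths of 16206 and 15884 UMIs. Fine clusters 8 and 9 were thus not compared at like depth. Their differences in the window were 0.00589 in pseudotime, 0.0262 in self-transition, 0.00173 in end point score and -0.753 in root cell score. Over all depths they were 0.00776, 0.0358, 0.00191 and -0.730.

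The members varied among themselves along pseudotime. The 88 mutant cells of earliest pseudotime had a median of 0.470 and the 88 of latest pseudotime 0.495. Between the same sets the median end point score went from 9.86e-04 (6.90e-04 to 0.00141) to 0.00239 (0.00206 to 0.00275), and self-transition from 0.351 (0.335 to 0.370) to 0.434 (0.410 to 0.460). The root cell score followed no such order. Its median was 0.0299 (0.0266 to 0.0329) in the earliest cells, 0.0193 (0.0178 to 0.0222) in the 88 cells between and 0.0439 (0.0268 to 0.0592) in the latest. The later cells also held more UMIs, 17344 (15495 to 18505) against 13664 (12455 to 14478), and a smaller mitochondrial percent, 1.46% (1.38% to 1.62%) against 1.76% (1.66% to 1.85%), with 1.93% (1.64% to 2.04%) in the cells between. The unspliced percent was 7.87% (7.45% to 8.40%) against 7.76% (7.30% to 8.16%), with overlapping intervals. Depth moved with pseudotime inside the cluster, and its part in the other differences was not tested.

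Over the 264 mutant cells, which share a library, the rank correlation (Spearman's rho) of pseudotime with self-transition was 0.54. In fine clusters 4 and 9 it was 0.21 and 0.20, and in fine clusters 6 and 7 it was 0.81 and 0.83. Pseudotime and end point score had a rho of 0.26, end point score and self-transition one of 0.41, and end point and root cell scores one of -0.27. All of these scores derive from the same velocity estimates and are not independent of each other. UMIs had a rho of 0.98 with genes, 0.20 with pseudotime and 0.0061 with unspliced percent.

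**Figure D4:**
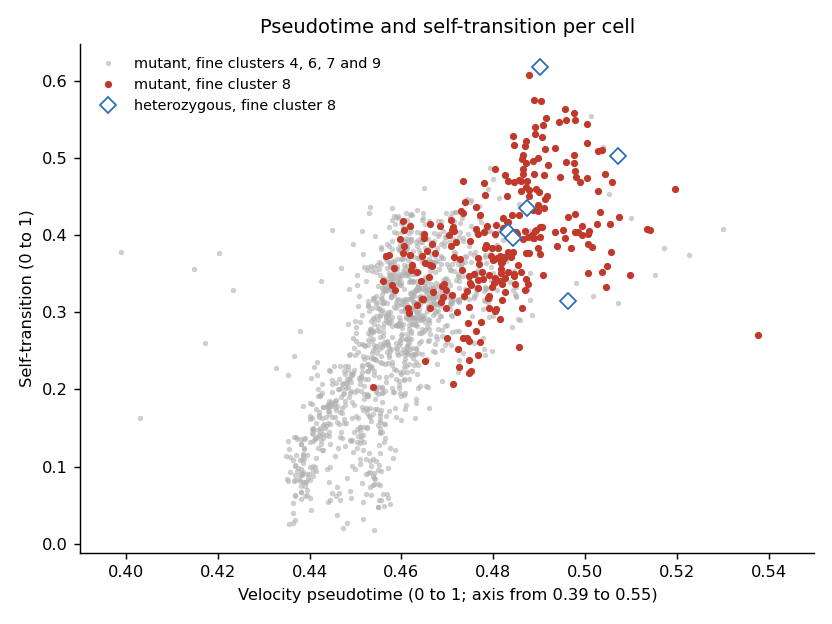
Pseudotime (horizontal) and self-transition (vertical) of single cells of coarse cluster 3: grey points are mutant cells of fine clusters 4, 6, 7 and 9, red points the 264 mutant cells and open diamonds the 6 heterozygous cells of fine cluster 8. The horizontal axis runs from 0.39 to 0.55 and leaves out 1 grey point; fine cluster 8 occupies the late side, with a rank correlation of 0.54 among its mutant cells.

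The 6 heterozygous members were late in pseudotime as well. Their pseudotime values ran from 0.483 to 0.507 with a median of 0.489, and all 6 lay above the mutant median of fine cluster 8. They also lay above the median of 0.454 of the other 116 heterozygous cells of coarse cluster 3. Their end point scores ran from 4.80e-04 to 0.00219, within the mutant range and above the median of 2.27e-05 of the other heterozygous cells in all 6. Against the mutant median of 0.00197 in fine cluster 8, 4 of these scores lay below and 2 above. Their root cell scores ran from 0.0138 to 0.0595, with 3 on either side of the mutant median. Self-transition ran from 0.315 to 0.618, and the highest value lay beyond the mutant maximum of 0.607. The velocity scores were computed over cells of both libraries, and the 6 members were chosen by cluster numbers that both libraries share. The late placement of the 6 members is therefore not independent of that of the mutant members.

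In transcript content the heterozygous members overlapped the mutant ones with an exception. They held 7852, 10664, 12206, 14696, 14863 and 20486 UMIs, so that 5 of 6 lay below the mutant median of 14973. Their mitochondrial percents, in the same order of cells, were 0.102%, 1.59%, 0.754%, 1.48%, 1.29% and 0.840%, and all 6 lay below the mutant median of 1.72%. The libraries differed in the same direction outside the cluster. The other 116 heterozygous cells of coarse cluster 3 had a median of 1.25%, and the other mutant cells 1.64%. Of the 6 members, 3 lay above 1.25%. The unspliced percents of the 6 members, in the same order, were 0.801%, 10.1%, 10.1%, 11.0%, 6.58% and 5.68%. The cell with the fewest UMIs, 1910 genes, 0.102% mitochondrial and 0.801% unspliced UMIs lay below the mutant minimums of 0.448% and 4.13% for the last pair of measures. Without that cell, an alternative chosen after seeing the data, the ratio of library shares was 52.2 (19.8 to 181) and that within coarse cluster 3 was 4.42 (1.74 to 15.0). With 6 cells from 1 library, no difference between the genotypes within the cluster was tested.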

How the data were processed

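Cells of both libraries were described by 2 tables that the authors deposited, with 1 row per cell. STARsolo, Scanpy and danRer11 are named in the submitters' processing notes. Versions, annotation, cell filters, doublet treatment, clustering settings and the velocity tool: not given in the sources used here. Per the file headers, the genes detected in each cell are counts. Total UMIs were deposited by the authors in natural log form, after adding 1, and were inverted and rounded, lying within 0.0614 of whole numbers. Mitochondrial values are percent of UMIs, per the file headers. Velocity scores deposited by the authors are fractions from 0 to 1, computed over cells of both libraries. Spliced and unspliced sizes were read as UMIs. Together they were 101% of the total in the median cell, and every unspliced percent is a percent of their sum. The deposited libraries held 115131011 heterozygous and 84294688 mutant UMIs.

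Cells were assigned to a library by the genotype in their row. Shares have exact Clopper-Pearson 95% intervals and medians exact intervals from order statistics; bounds of ratios and differences combine opposite ends. They cover counting error over cells only. No p-value was computed, because cells are not replicates. Named items were the fine clusters of coarse cluster 3 with at least 20 cells. The cluster studied, its comparisons and the alternatives were chosen with earlier results of these data known. Interval code was tested on simulated data. Python 3.11.15, scipy 1.17.1 and pandas 2.3.3 were used.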

Additional observations from a re-analysis of the deposited data

How the results depend on the processing

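The second deposited table gave identical ratios. Over the alternatives that left out no coarse cluster, the ratio of library shares lay between 41.9 (without the 5% of cells with the most UMIs) and 80.2 (at least 2967 genes, with 3 heterozygous cells). The ratio within coarse cluster 3 lay between 3.05 and 4.71. Filters on cells also changed the totals, which at the gene minimum were 3815 heterozygous and 2633 mutant cells. Outside coarse cluster 1 the library ratio was 18.5, and outside coarse clusters 1 and 4 it was 9.68 (3.95 to 29.6), by the change of denominator. Against the other clusters together, means in place of medians gave differences of -0.148 in root cell score, 0.00523 in end point score and 0.127 in self-transition. Against fine cluster 6 alone, the difference of means in root cell score was -0.00376. A mitochondrial maximum of 1.65% gave 0.0282 in pseudotime against the other clusters together. The cause of these changes was not tested. In the heterozygous library, over 6 cells, the differences were -1533 UMIs, -81.5 genes, -0.186 percentage points mitochondrial, 0.439 percentage points unspliced, 0.0346 in pseudotime, 0.00140 in end point score and 0.186 in self-transition. There fine cluster 8 also turned below fine cluster 4 in UMIs (-1020.5) and genes (-65.5) and below fine cluster 6 in UMIs (-44). Of the differences from single clusters, 114 stayed within their bounds and 43 moved beyond them, in part across 0 where the bounds already included 0. Correlations of UMIs changed by less than 0.1 with Pearson's r on log UMIs. No paired analysis was possible because each genotype had 1 library, and none could be left out. The 6 heterozygous cells limit every comparison of genotypes.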

Other observations

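Cells with under 1% unspliced UMIs, as in 1 heterozygous member of fine cluster 8, numbered 59 of 5207 in the heterozygous and 32 of 5262 in the mutant library. In coarse cluster 3 they numbered 2 of 122 heterozygous and 11 of 1447 mutant cells. None of the 11 was among the 264 mutant cells of fine cluster 8, but counts this small do not tell the cluster apart from its neighbours. The mutant member with the most UMIs, 59767, had 6198 genes, a pseudotime of 0.488, a self-transition of 0.400, an end point score of 0.00206 and a root cell score of 0.0594. The member with the next most, 47451 UMIs, had the earliest pseudotime (0.454) and the lowest self-transition (0.204) of the mutant members, with a root cell score of 0.359. No doublet caller was run.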
